A study of Homo sapiens with 6 samples.

Results

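The immediate early genes described here were 10 transcription factor and early response genes, of 58676 genes listed: FOS, FOSB, FOSL1 and FOSL2 of the FOS family, JUN, JUNB and JUND of the JUN family, EGR1, IER2 and IER3. They were chosen by gene symbol and each symbol was found once. Of the 10, 9 passed a filter of at least 1 TPM (reads per gene length, scaled to the same total in each library) in at least 3 of the 6 libraries, as did 17408 genes in all. FOSB did not pass and was not tested.

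The cells were A549, a human lung adenocarcinoma cell line that was negative for recoverin (RCVRN), a calcium-binding protein of photoreceptors that inhibits rhodopsin kinase. A549 Rec carried human recoverin cDNA with a myc tag and A549 MOCK carried the empty vector. Both were made with a retroviral vector, selected with puromycin and grown in high-glucose medium with serum as confluent 2D cultures. No stimulus was given in the labels, and the values are levels at harvest. The labels gave 6 days of culture and 3 replicates of each group, numbered 1 to 3. For replicate 3 the number came from the sample descriptions alone, since its titles carried no number, unlike those of replicates 1 and 2. The labels did not say whether the replicates were separate cultures. The p-values therefore measure the spread between these libraries, which may be technical.

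Immediate early genes are transcribed within minutes of a stimulus, without new protein synthesis, when kinases activate transcription factors that already sit on their promoters. ERK signaling acts through ELK factors and SRF at the serum response element, and Gs-coupled receptors act through cAMP, protein kinase A and CREB at the cAMP response element (CRE). FOS and JUN proteins pair through leucine zippers to form AP-1, and EGR1 is a zinc finger factor bound by its co-repressors NAB1 and NAB2. The study took up GPCR and CREB signaling in A549 Rec after its pathway analysis, and these genes are a common readout of both.

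The promoters are shown first, since CREB and SRF are the factors for which these genes serve as a readout. RefSeq promoters (GRCh38.p14) were matched for 8 of the 10 genes, and FOSL1 and IER3 were not matched. The letters TGACG, the core of the CRE, to which CREB can bind, or the reverse complement CGTCA, were found in the 250 bases before the start of 8 of 8 genes, against 21.2% of 35116 promoters. Each window below holds 29 bases on the strand of the gene, with the core nearest to the start in capitals.
FOS, chr14:75278752-75278780, + strand: tggttgagcccgTGACGtttacactcatt
FOSB, chr19:45467924-45467952, + strand: gcaaggggcgggTGACGtaagcagggggg
FOSL2, chr2:28392780-28392808, + strand: ggagtctggggtTGACGtgagtgaatcca
JUN, chr1:58784154-58784182, - strand: gagtctccatggTGACGggcgggcccgcc
JUNB, chr19:12791337-12791365, + strand: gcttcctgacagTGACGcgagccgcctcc
JUND, chr19:18281692-18281720, - strand: gcaaatgagcgaCGTCAcccgcacccaat
EGR1, chr5:138465401-138465429, + strand: tatggccatgtaCGTCAcgacggaggcgg
IER2, chr19:13150259-13150287, + strand: cacccccgccccCGTCAcgccaccatcga

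The first letter of the core lay 64 bases before the start in FOS, 60 in FOSB, 66 in FOSL2 and 66 in EGR1. In the other four genes it lay 123 bases before the start in JUN, 137 in JUNB, 86 in JUND and 140 in IER2. The windows of FOSL2 and JUN lay inside the spans deposited for these genes, which began upstream of the RefSeq starts. The FOS window overlapped its deposited span in part, since that span began at 75278774, also upstream of the RefSeq start. The whole CRE, TGACGTCA, which holds the core on both strands, was found in JUND alone among the 8, at 200 bases before the start, against 1.65% of all promoters. The AP-1 site TGANTCA was found in none of the 8 (6.57% of all promoters), and the TATA box TATAAA in FOS, FOSB and JUNB (10.7%). Other forms of the AP-1 site were not searched. A match is a description of letters and not a bound site.

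Only the 250 bases before the start were searched, so a CArG box farther upstream in FOS or another gene would have been missed. Within these bases, EGR1 was the one gene of the 8 with a CArG box (1.16% of all promoters), the core of the serum response element that SRF binds. EGR1 alone also had the EGR site GCGNGGGCG (8.41%). Its 250 bases before the start, on the + strand, are shown because they hold matches for SRF, CREB and EGR1 itself. The capitals mark, from 5′ to 3′, the EGR site, a CRE core, a pair of CArG boxes and a further CRE core.
EGR1, chr5:138465229-138465478: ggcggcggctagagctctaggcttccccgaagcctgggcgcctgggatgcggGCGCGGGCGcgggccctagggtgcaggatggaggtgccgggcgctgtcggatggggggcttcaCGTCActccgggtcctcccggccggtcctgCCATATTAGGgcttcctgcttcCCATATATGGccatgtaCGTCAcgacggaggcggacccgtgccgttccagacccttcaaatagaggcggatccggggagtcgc

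The libraries held 15183490 to 18572167 reads, as recovered from the TPM. RCVRN was listed at 0 in the 3 A549 MOCK libraries and at 322, 338 and 339 TPM in A549 Rec. Mitochondrially encoded genes took 13.3% to 17.3% of the TPM in the libraries of replicates 1 and 2, 34.5% in A549 MOCK replicate 3 and 26.9% in A549 Rec replicate 3. Of 6 epithelial markers, KRT7, KRT8, KRT18 and CDH1 were at 108.6 TPM or more in each library. EPCAM was low, at 0.979 to 2.98 TPM, and KRT19 stayed at or under 0.32 TPM. The epithelial markers summed to 4785 to 6486 TPM in A549 MOCK and to 6112 to 6982 TPM in A549 Rec. Of 8 markers of blood, endothelial and fibroblast cells, 1 was tested (COL1A1, 2.21 to 5.14 TPM), CD3E was listed at 0 throughout, and the 8 summed to 3.11 to 6.23 TPM in A549 MOCK and to 3.60 to 6.05 TPM in A549 Rec.

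FOSL2 was by far the highest of the 10 genes. It encodes FRA-2, a FOS protein that lacks the strong activation domain of FOS. FOSL2 (ENSG00000075426, GRCh38 chr2:28392448-28417312, 4 exons) stood at 377, 380 and 389 TPM in A549 MOCK replicates 1 to 3 and at 360, 375 and 375 TPM in A549 Rec, on 12875 to 15695 reads per library. Its mean over the 6 libraries was 376 TPM ± 9.24 (SD, n = 6), rank 260 of the 17408 tested genes. The spread was the lowest of the 10 genes, with a coefficient of variation of 2.46%. FOSL2 made up 91.8% to 94.1% of the summed FOS family TPM in each library.

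The other FOS family genes were much lower. FOSL1 (ENSG00000175592, chr11:65892049-65900573, 4 exons), which encodes FRA-1, stood at 21.3, 24.95 and 20.9 TPM in A549 MOCK and at 22.0, 23.6 and 23.4 TPM in A549 Rec. FOS (ENSG00000170345, chr14:75278774-75282230, 4 exons), the classic partner of JUN in AP-1, stood at 8.95, 8.59 and 3.30 TPM in A549 MOCK and at 7.36, 8.61 and 8.91 TPM in A549 Rec. A549 MOCK replicate 3 was thus below the other 5 libraries, on 60 reads against 119 to 163. FOSB (ENSG00000125740, chr19:45467995-45475179, 4 exons), a FOS paralog, was near the limit of detection, at 0.143, 0.439 and 0.128 TPM in A549 MOCK and at 0.144, 0.462 and 0.513 TPM in A549 Rec. These values rested on 4 to 15 reads, and FOSB lies wholly within the span of ERCC1 on the opposite strand.

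Within the JUN family, JUNB and JUND were far above JUN. JUNB (ENSG00000171223, chr19:12791496-12793315, 1 exon), a weaker activator than JUN, stood at 90.0, 84.0 and 82.9 TPM in A549 MOCK and at 87.7, 102 and 83.2 TPM in A549 Rec. JUND (ENSG00000130522, chr19:18279760-18281622, 1 exon), the least stimulus-dependent of the JUN genes, stood at 83.3, 76.6 and 71.4 TPM in A549 MOCK and at 69.7, 74.7 and 67.0 TPM in A549 Rec. The ranges of both genes overlapped. JUN (ENSG00000177606, chr1:58780788-58784327, 1 exon), which can activate its own promoter as part of AP-1, stood at 20.9, 20.8 and 26.6 TPM in A549 MOCK and at 17.0, 15.0 and 24.8 TPM in A549 Rec. In both groups replicate 3 was the highest.

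JUNB took 45.8% to 53.2% of the summed JUN family TPM, JUND 38.3% to 42.9% and JUN 7.81% to 14.7%. The FOS family TPM was 2.10 to 2.33 times the JUN family TPM in the 6 libraries. JUNB lies within the span of HOOK2 on the opposite strand. The library kit was labelled directional, but the strand setting of the counting was not given in the sources used here, so reads of the pair may not be told apart.

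EGR1 was near the bottom of the order. EGR1 (ENSG00000120738, chr5:138465490-138469315, 2 exons) stood at 1.58, 2.01 and 3.01 TPM in A549 MOCK and at 1.28, 1.64 and 3.75 TPM in A549 Rec, on 20 to 62 reads. Both replicate 3 libraries lay above the other 4. Of its relatives, EGR2, EGR3 and EGR4 were at or under 0.274 TPM in each library and were not tested.

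IER2 and IER3 lay far apart in level. IER2 (ENSG00000160888, chr19:13150415-13154908, 2 exons), a nuclear protein of the early response, stood at 66.0, 66.0 and 56.4 TPM in A549 MOCK and at 61.1, 65.8 and 59.9 TPM in A549 Rec. It shares 1123 bases with AC011446.2, an antisense gene on the opposite strand that reached 132 TPM. IER3 (ENSG00000137331, chr6:30743199-30744554, 2 exons), a stress-induced modulator of cell death and ERK signaling, stood at 2.05, 1.20 and 4.47 TPM in A549 MOCK and at 0.591, 1.01 and 4.34 TPM in A549 Rec, on 4 to 34 reads. As for EGR1, both replicate 3 libraries lay above the other 4.

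The IER3 level carries a limit of its own. Of 13 windows of 100 bases along IER3, 12 were found again on 5 of the 261 alternate sequences of the reference genome, and none was for the other 9 genes. Of 77 protein-coding genes within 1 Mb of IER3, 53 (68.8%) were listed at 0 in all 6 libraries, against 20.9% elsewhere on chromosome 6. How multi-mapping reads were treated was not given in the sources used here, and its part in the low level of IER3 was not tested.

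In order of mean TPM the 10 genes ran FOSL2 (376), JUNB (88.3), JUND (73.8), IER2 (62.5), FOSL1 (22.7), JUN (20.8), FOS (7.62), IER3 (2.28), EGR1 (2.21) and FOSB (0.305). The ranges over the 6 libraries overlapped between JUNB and JUND, FOSL1 and JUN, FOS and IER3, and IER3 and EGR1. The remaining neighbours in the order did not overlap, and the step from FOSL2 (lowest 360 TPM) to JUNB (highest 102 TPM) was the widest in TPM. JUND and IER2 were separated by little, with a lowest JUND value of 67.0 TPM and a highest IER2 value of 66.0 TPM.

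**Figure D1:**
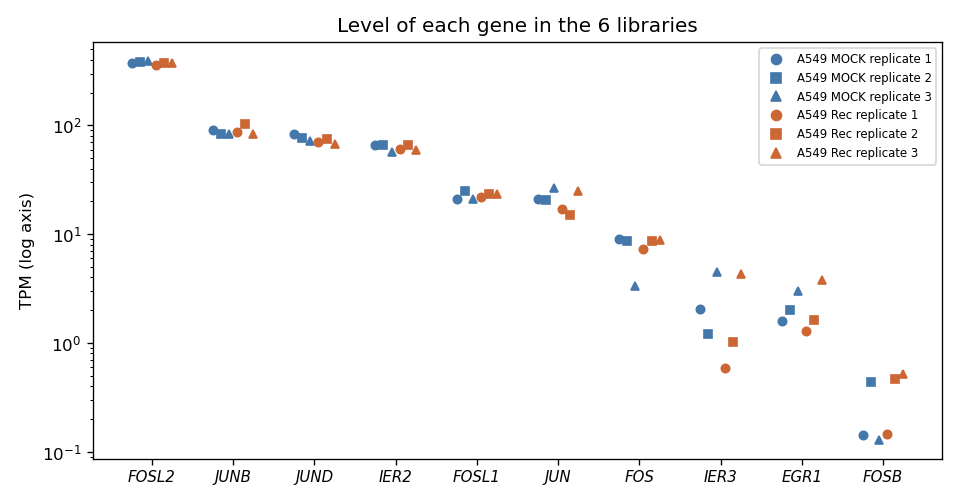
TPM (log axis) of the 10 genes in each of the 6 libraries, in order of mean TPM. Blue points are A549 MOCK and orange points A549 Rec, and the marker gives the replicate number. FOSL2 lies between 360 and 389 TPM in each library, and FOS, IER3, EGR1 and FOSB show the widest spread.

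The comparison of A549 Rec with A549 MOCK asked whether recoverin moved the readout genes of GPCR and CREB activity. None of the 9 tested genes passed the test. By limma, 0 of the 9 were called (p adjusted by the Benjamini-Hochberg method under 0.05, with a fold of at least 2) and 0 had an unadjusted p under 0.05. Voom on recovered reads also called 0 of the 9. Over all 17408 tested genes 0.00574% were called, which was RCVRN itself (log2 difference 8.38, SE 0.09), and 2.06% had an unadjusted p under 0.05. The adjusted p was 0.9997 for each of the 9 (limma). With its own test of read counts, at an FDR under 0.05 and a fold of at least 2, the paper called genes both higher and lower. That test was not rerun here, so its calls are not directly comparable with these.

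The 9 tested genes had log2 differences of both signs, with 3 above and 6 below 0. FOS was at +0.32 (SE 0.32, 95% interval -0.43 to 1.07, A549 Rec minus A549 MOCK on the log2(TPM + 1) scale). This interval holds a fold of 2 higher. The FOS means were 8.29 TPM ± 0.824 in A549 Rec and 6.95 TPM ± 3.16 in A549 MOCK (SD, n = 3 each). JUN was at -0.28 (SE 0.20, 95% interval -0.74 to 0.19), with means of 18.9 TPM ± 5.16 in A549 Rec and 22.8 TPM ± 3.34 in A549 MOCK. EGR1, a gene often read for ERK and CREB activity, was at -0.04 with a wide interval of -0.80 to 0.71. FOSL2 was at -0.04, with an interval of -0.32 to 0.23.

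The remaining genes were similar. FOSL1, JUNB, JUND and IER2 lay between -0.13 and 0.08, with intervals that ran from -0.39 to 0.36 at the widest. IER3, at -0.37, had an interval of -1.59 to 0.86, which holds a fold of 2 lower. When single libraries were left out, IER3 ran from -0.89 (without Rec replicate 3) to -0.0079 (without MOCK replicate 3) and JUN from -0.48 (without Rec replicate 3) to -0.13 (without Rec replicate 2). The median over the 9 genes was -0.04, beside 0.02 over all tested genes.

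The same-numbered pairs were then read one by one. JUN was lower in A549 Rec in 3 of 3 pairs, by log2 differences of -0.28, -0.45 and -0.10 in pairs 1 to 3. IER3 was lower in 3 of 3 pairs too, at -0.94, -0.13 and -0.03, so that most of its mean came from pair 1. JUND (-0.25, -0.04 and -0.09) and FOSL2 (-0.07, -0.02 and -0.05) completed the 4 genes that were lower in each pair, and 9.66% of all tested genes were. Not one of the 9 was higher in each pair, as 13.1% of all tested genes were.

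With the replicate number as a block, JUN had the same log2 difference with an SE of 0.095 and an unadjusted p of 0.030 (limma, adjusted p = 0.998), in a fit where 4.11% of all tested genes had an unadjusted p under 0.05. FOSL2 was the one gene of the 10 whose groups did not overlap, with a highest A549 Rec value of 375.4 TPM and a lowest A549 MOCK value of 376.9 TPM. Its exact permutation p was 0.1, two-sided, the smallest that 3 against 3 libraries can give, and 2.69% of tested genes lay below in the same way. For the other 9 genes the exact permutation p ran from 0.2 to 0.9.

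The other 5 tested genes had mixed signs. FOS moved from -0.25 in pair 1 through 0.00 in pair 2 to +1.20 in pair 3, the pair that holds the low A549 MOCK value. EGR1 was at -0.18, -0.19 and +0.24. JUNB (-0.04, 0.28 and 0.00), IER2 (-0.11, 0.00 and 0.09) and FOSL1 (0.05, -0.08 and 0.16) stayed within 0.28 of 0. Of the 9 genes, 8 were lower in A549 Rec in pair 1, 7 in pair 2 and 4 in pair 3.

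Of all tested genes, 38.0% were higher in A549 Rec in pair 1, 56.8% in pair 2 and 62.8% in pair 3. In pair 2 the median of the 9 genes was thus on the other side of 0 (-0.04) from that of all tested genes (0.03). After rescaling without mitochondrially encoded genes, 7, 8 and 6 of the 9 were lower in pairs 1 to 3, where the medians of all tested genes were 0.01, -0.01 and -0.06. FOSB, not tested, was within 0.02 of 0 in pairs 1 and 2 and at 0.42 in pair 3, where it had 4 reads in A549 MOCK against 15 in A549 Rec.

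**Figure D2:**
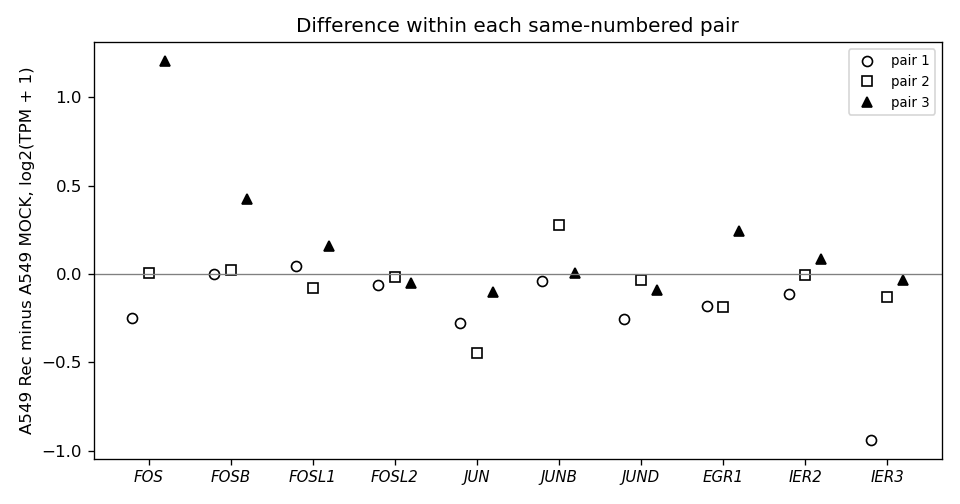
Difference of A549 Rec minus A549 MOCK on the log2(TPM + 1) scale for the 10 genes within same-numbered pairs, one marker per pair. FOS, FOSL1, JUNB, EGR1 and IER2 have points on both sides of 0, FOSL2, JUN, JUND and IER3 lie below 0 in 3 of 3 pairs and FOSB lies above, and FOS in pair 3 (1.20) and IER3 in pair 1 (-0.94) lie farthest from 0.

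Other genes of the pathway were described by lists that were chosen with earlier results of these data known. Between A549 Rec and A549 MOCK, no gene of any list had an adjusted p under 0.05. Of 32 other immediate early genes 25 were tested, with a median log2 difference of -0.04, 8 above and 17 below 0. At an unadjusted p under 0.05 there were 2 of them. BTG2, an antiproliferative gene, stood at 14.4, 15.6 and 11.1 TPM in A549 MOCK and at 18.6, 19.4 and 19.5 TPM in A549 Rec. KLF2, a zinc finger factor, stood at 2.46, 2.21 and 2.56 TPM in A549 MOCK and at 3.57, 3.31 and 3.95 TPM in A549 Rec. Its values rested on 22 to 42 reads. The groups did not overlap for BTG2 or KLF2, as for 2.47% of tested genes with A549 Rec above.

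The targets of CREB and cAMP gave no call either. Of 15 listed, 14 were tested and 5 stand on the first list as well. Their median log2 difference was -0.04, 6 above and 8 below 0. PDE4D, PDE4B and PDE10A, phosphodiesterases that degrade cAMP, were at -0.08, -0.06 and -0.06, and GEM, a small GTPase of the RAS superfamily, at -0.13.

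The ERK output genes (14 of 14 tested, median -0.04) included DUSP6, an ERK phosphatase, at -0.15 and ETV4, an ETS factor, at 0.20. PHLDA1 was at -0.13 and the receptor tyrosine kinase gene EPHA4 at -0.18. The groups did not overlap for PHLDA1 or EPHA4, as for 2.69% of tested genes with A549 Rec below. The upstream regulators (22 of 22 tested, median 0.02) included CREB1 at -0.08, ELK1 at 0.13, NAB2 at -0.13 and the ribosomal S6 kinase gene RPS6KA3 at 0.14. AP-1 partners (5 of 7 tested) had a median of 0.07 and AP-1 targets (7 of 12 tested) a median of 0.02. Among the targets, the cytokine gene IL11 was at -0.21. Heat shock genes (6 of 8 tested) had a median of 0.06.

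The replicate 3 libraries of both groups were compared with replicates 1 and 2, with the group in the model. This comparison was chosen with earlier results in view, and the labels do not say what a replicate number stands for. Over all tested genes 1.14% were called, 0.419% higher and 0.718% lower, and at an adjusted p under 0.05 with no fold threshold 1.84% were higher and 24.8% lower. An unadjusted p under 0.05 was reached by 3 of the 9 genes and by 41.2% of all tested genes. The median of all tested genes was -0.19 (log2) as deposited, beside the larger share of mitochondrially encoded genes in replicate 3. After rescaling without those genes the median was 0.08 and the calls were 103 higher and 36 lower, against 73 higher and 125 lower as deposited.

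IER3, EGR1 and JUN were higher in replicate 3. IER3 was called, at 4.34 to 4.47 TPM against 0.591 to 2.05 TPM, with a log2 difference of 1.33 (SE 0.24, limma, adjusted p = 0.0155). EGR1, at 3.01 and 3.75 TPM against 1.28 to 2.01 TPM, was higher by 0.74 (SE 0.19, limma, adjusted p = 0.0371), under the fold threshold as deposited. JUN, at 24.8 and 26.6 TPM against 15.0 to 20.9 TPM, was higher by 0.47 (SE 0.09, limma, adjusted p = 0.0187). In these 3 genes both replicate 3 libraries lay above the other 4, as in 6.4% of tested genes.

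The 3 genes kept their direction in each alternative that was run, including voom on recovered reads (2.06 for IER3, 1.26 for EGR1 and 0.71 for JUN, with 4 of the 9 genes and 10.2% of all tested genes higher at an adjusted p under 0.05). Rescaled without mitochondrially encoded genes, IER3 was at 1.65, EGR1 at 1.02 and JUN at 0.76, and IER3 and EGR1 passed the fold threshold (0.572% of tested genes were called higher there). With each library left out in turn, the log2 differences ran from 1.08 to 1.58 for IER3, from 0.53 to 0.96 for EGR1 and from 0.34 to 0.60 for JUN. In these smaller fits the adjusted p was over 0.05 for EGR1 in 6 of 6 fits (0.0628 to 0.212), for JUN in 5 of 6 (Rec replicate 1 was the exception, at 0.0296, and the others ran to 0.0719), and for IER3 without MOCK replicate 3 (0.0825), without Rec replicate 2 (0.0502) and without Rec replicate 3 (0.0767). The part of the mitochondrial share in these differences was not tested beyond the rescaling.

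**Figure D3:**
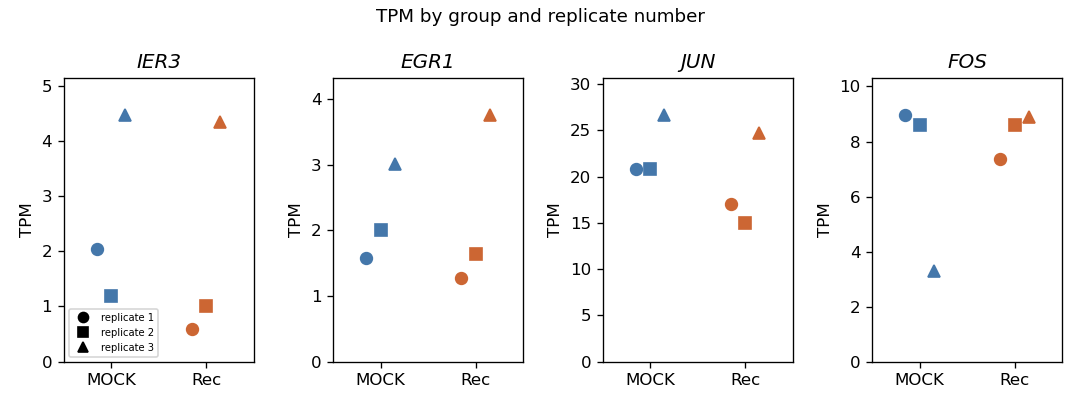
TPM (linear axis from 0, one scale per gene) of IER3, EGR1, JUN and FOS in the 3 libraries of each group, with the marker giving the replicate number. Replicate 3 lies highest in both groups for IER3, EGR1 and JUN, and FOS is low in A549 MOCK replicate 3 alone (3.30 TPM).

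The other members did not pass the test in replicate 3 as deposited. FOSL2 was at 0.03 (SE 0.06), FOSL1 at -0.05, JUNB at -0.13, JUND at -0.13 and IER2 at -0.15. JUNB and IER2 had both replicate 3 libraries below the other 4, as 44% of tested genes had, and the direction of FOSL1, JUNB, JUND and IER2 turned to higher with the rescaling (0.24, 0.17, 0.16 and 0.14), with quantile normalization and with voom. FOSL2 was higher under 3 other scalings, by 0.39 with quantile normalization (limma, adjusted p = 0.0207), by 0.26 with voom (limma, adjusted p = 0.0015) and by 0.33 after the rescaling (limma, adjusted p = 0.0218), where 5.68% of tested genes were higher and 4.03% lower at that threshold, and no member was lower. The median over the 9 genes was -0.05 as deposited and 0.24 after the rescaling.

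FOS was low in A549 MOCK replicate 3 alone. A549 MOCK replicate 3 was at 0.376 times the mean of replicates 1 and 2, and A549 Rec replicate 3 at 1.12 times. The difference between groups, which sets 1 replicate 3 library against the other and was tested after the low value was seen, did not pass, with a log2 value of 1.33 (SE 0.21, limma), an unadjusted p of 0.0015 and an adjusted p of 0.333, while 13.6% of tested genes had an unadjusted p under 0.05 and 0.00574% were called. Over both groups the replicate 3 difference of FOS was -0.52 (limma, adjusted p = 0.223). It was -1.18 without Rec replicate 3 (limma, adjusted p = 0.0105) and 0.14 without MOCK replicate 3, so it rested on the A549 MOCK library, which also had the largest mitochondrial share (34.5%).

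**Figure D4:**
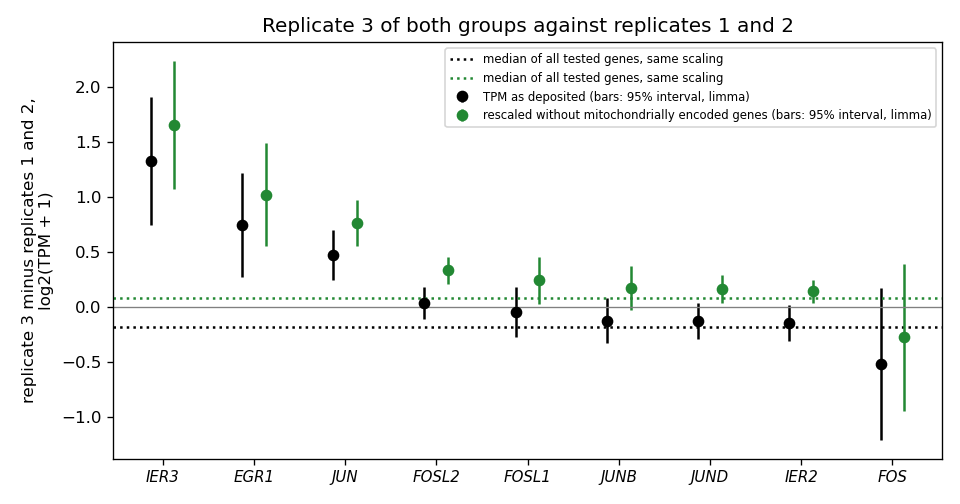
Replicate 3 minus replicates 1 and 2 on the log2(TPM + 1) scale for the 9 tested genes, with the TPM as deposited (black) and rescaled without mitochondrially encoded genes (green). Bars are 95% intervals from limma and dotted lines the medians of all tested genes (-0.19 and 0.08). IER3, EGR1 and JUN lie above 0 with both scalings, and FOS has the widest interval.

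Among the other immediate early genes, 6 of 25 were higher in replicate 3 at an adjusted p under 0.05 and 2 lower. Of all tested genes 1.84% were higher and 24.8% lower. The median of the list was 0.13, beside -0.19 over all tested genes. PPP1R15A, which encodes the stress phosphatase subunit GADD34, went from 51.8 to 54.4 TPM in replicates 1 and 2 to 157 and 131 TPM (log2 1.41, SE 0.07). CCN1 and CCN2, matricellular genes listed as CYR61 and CTGF, were higher by 0.85 and 0.93. KLF6 (0.50), GADD45B (0.49) and the salt-inducible kinase gene SIK1 (1.01) were higher as well, and IER5 (-0.37) and IER5L (-0.44) lower. After the rescaling 11 of the 25 were higher and 0 lower (5.68% and 4.03% of all tested genes), with IER5 at -0.08 and IER5L at -0.15. ATF3, a stress-induced AP-1 partner, stood at 4.06 and 2.91 TPM in replicate 3 of A549 MOCK and A549 Rec against 0.10 to 0.847 TPM elsewhere. It did not pass the filter as deposited, but it did after the rescaling and was higher there (log2 1.87, limma, adjusted p = 0.0305).

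Of 14 tested CREB and cAMP targets, 3 were higher in replicate 3 and 0 lower (1.84% and 24.8% of all tested genes), with a median of 0.01. AREG, which encodes the EGF receptor ligand amphiregulin, went from 14.5 to 20.6 TPM in replicates 1 and 2 to 51.8 and 47.7 TPM (log2 1.46, SE 0.12). SIK1, shared with the list above, and RGS2 (0.45), a regulator of G protein signaling, were the others. NR4A1, an orphan nuclear receptor and a widely used CREB target, was at -0.27 (limma, adjusted p = 0.0731) and at 0.02 after the rescaling, where the median of the list was 0.25.

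The remaining pathway lists had medians between -0.61 and 0.03. Of the ERK output genes EPHA2 was higher (0.48) and SPRED2 (-0.34) and ETV4 (-0.40) lower, with a median of -0.11. CCND1, the cyclin D1 gene, was at -0.30 (limma, adjusted p = 0.0531). The upstream regulators had 0 higher and 5 of 22 lower (median -0.13), a share near the 24.8% of all tested genes: MAPK7 (-0.63), MAPK3 (-0.44), RPS6KA1 (-0.36), RPS6KA3 (-0.43) and ELK1 (-0.28). After the rescaling the ERK output list had 4 higher and 0 lower, and the upstream list 3 higher and 1 lower. Of all tested genes 5.68% were higher there and 4.03% lower.

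JDP2, an AP-1 repressor, was the one AP-1 partner that was higher (0.57), with a median of 0.03 over the 5 tested. Among the AP-1 targets PLAU, the urokinase gene, was higher (0.51) and IL11 lower (-0.47), with a median of -0.21. After the rescaling PLAU was higher (0.81), IL11 was at -0.19 (limma, adjusted p = 0.299) and the median was 0.08. MMP1, MMP3, MMP9, MMP10 and MMP13, protease genes often used as AP-1 targets, did not pass the filter.

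Heat shock genes, checked as a sign of stress, were lower in replicate 3 for 6 of 6 tested (median -0.61), with HSPA8 at -1.10 and HSPB1 at -0.99. Of all tested genes 24.8% were lower and 1.84% higher at an adjusted p under 0.05. After the rescaling 4 of 6 were lower, where 4.03% of all tested genes were lower and 5.68% higher. HSPA1A was listed at 0 in each library, and its near-identical copy HSPA1B at 0.08 TPM or less, so neither was read. Epithelial markers had 2 of 5 lower (EPCAM -0.74, CDH1 -0.29) and 0 higher, and COL1A1 was lower (-0.74). After the rescaling the epithelial markers had 1 higher (KRT7, 0.29) and 0 lower, and COL1A1 did not pass (-0.54, limma, adjusted p = 0.0638). Mitochondrially encoded genes had 20 of 25 higher and 1 lower. The part of any of these in the IER3, EGR1 and JUN differences was not tested.

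**Figure D5:**
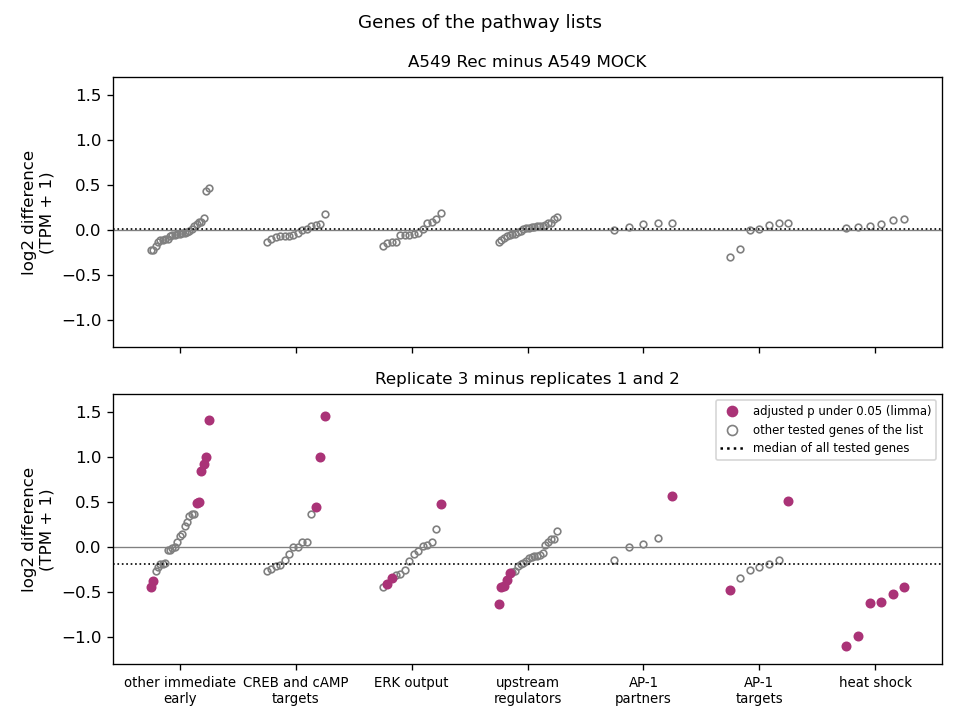
Log2 difference (TPM + 1 scale) of each tested gene of 7 lists, for A549 Rec minus A549 MOCK (upper panel) and replicate 3 minus replicates 1 and 2 (lower panel). Filled points had an adjusted p under 0.05 by limma, and the dotted line is the median of all tested genes (0.02 and -0.19). No point is filled in the upper panel, and the lower panel holds higher points in 5 lists and 6 lower points in the heat shock list.

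The mean centred profile of the 9 tested genes was lowest in A549 Rec replicate 1 (-0.20 on the log2 scale) and highest in A549 Rec replicate 3 (0.20). Each gene had the same weight, so genes of wide spread moved the mean most. IER3 (coefficient of variation 75.4%, 4 to 34 reads) and EGR1 (43.6%, 20 to 62 reads) had the widest spread, against 2.46% for FOSL2. The profile thus leaned on genes with few reads and was not shared by all 9. Among 9725 tested genes with a mean of at least 10 TPM, the genes most like this profile over the 6 libraries included UBAP1 (Pearson's r 0.97), CXCL1 (0.96), AC011511.5 (0.96) and CENPK (0.96). The points share their libraries and scaling, and the likeness is a description of 6 points. CXCL1, a chemokine gene, stood at 1315, 1271 and 1445 TPM in A549 MOCK and at 1125, 1208 and 1592 TPM in A549 Rec.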

How the data were processed

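RNA sequencing of A549 MOCK and A549 Rec (3 libraries each) was analysed. The authors trimmed reads with Trimmomatic 0.38 after FastQC 0.11.7, mapped them to GRCh38 with HISAT2 2.1.0, counted reads per gene with featureCounts 1.6.3 and deposited TPM, which have the same sum in each library with mitochondrial genes included. Versions are from the submitters' processing notes. The annotation release, strand setting and treatment of multi-mapping reads were not given in the sources used here. Of 58676 deposited genes, 58191 overlapped their own GENCODE v44 entry (GRCh38) on the same strand.

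Whole reads were recovered from the TPM as multiples of a step per library and gene length (tolerance 0.01 reads, 29900 genes detected). On simulated data 95.4% of 7654 genes were recovered exactly. The precision of a read number covers counting error only, and 95% intervals of differences are limma intervals from the spread between libraries.

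limma 3.58.1 in R 4.3.3 (trend) was fitted to log2(TPM + 1) of the 17408 genes that reached 1 TPM in 3 or more of the 6 libraries, for the group and for replicate 3 with the group in the model. Folds on this scale understate the change of low genes. A call was a Benjamini-Hochberg adjusted p under 0.05 with a fold of at least 2. On simulated data with 200 genes changed 3-fold, 196 were called with 11 others for the group comparison (17210 genes), and 195 with 26 others for replicate 3 (17190 genes). The simulation used the same spread setting for all genes and no mitochondrial shift. Its group comparison had no replicate 3 shift, and low genes were left out of the changed set. These rates may therefore not hold for the libraries described here. Deviations from group means correlated at 0.11, 0.16 and 0.34 between same-numbered libraries. Libraries of different numbers were not compared, and a shift shared by the replicate 3 libraries could alone give positive values for replicates 1 and 2. These correlations therefore cannot show that the numbers pair the samples, and the labels do not say so. The pairs were formed by replicate number, and a block was an alternative.

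The members and lists were chosen with earlier results of these data known. Named list genes were up to 4 per list by smallest p in each fit, and any that were called. Some genes that the rule names are not reported here. Genes named beyond this rule were chosen after their values were seen. Promoters were from RefSeq, searched on both strands over the 250 bases before the start.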

Additional observations from a re-analysis of the deposited data

How the results depend on the processing

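In the group comparison, in which RCVRN was called, 6 genes were called by limma without trend, 6 with no filter on low TPM, and 2 with both replicate 3 libraries left out, and 1 to 2 when single libraries were left out. With the replicate block 1 gene was called, the log2 difference of JUN stayed at -0.28, and no other call changed by the pairing. No member was called in the group comparison under any alternative run. The cause of each change below was not tested unless the alternative itself has fewer samples.

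Signs that turned in the group comparison were of differences near 0 or of FOS. FOS was at -0.12 and FOSL1 at -0.017 with both replicate 3 libraries left out, and FOSL1 at -0.0005 after rescaling without mitochondrially encoded genes, with the block or without it. When libraries were left out one at a time, FOS ran from -0.076 to 0.53, FOSL1 from -0.0031 to 0.12, JUNB from -0.0026 to 0.14, EGR1 from -0.36 to 0.17 and IER2 from -0.085 to 0.027.

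In the replicate 3 comparison 198 genes were called, 121 with quantile normalization, 4638 with no fold threshold, and 6 (without MOCK replicate 3) to 403 (without Rec replicate 3) with libraries left out singly, and leaving out MOCK replicate 2 or Rec replicate 2 gave 130 each. The calls split 74 higher and 47 lower with quantile normalization and 179 higher and 49 lower with voom. With quantile normalization, FOSL1 was at 0.15, JUNB at 0.17, JUND at 0.16 and IER2 at 0.12, after the rescaling at 0.24, 0.17, 0.16 and 0.14, and with voom at 0.17, 0.091, 0.088 and 0.068. When libraries were left out one at a time, FOS ran from -1.18 to 0.14 and FOSL1 from -0.14 to 0.041. EGR1 passed neither with no filter (limma, adjusted p = 0.0848) nor with quantile normalization (limma, adjusted p = 0.0529). In the difference of replicate 3 between groups, chosen after seeing the data, JUND was at -0.12 and IER2 at -0.025 after the rescaling, with the opposite sign as deposited. The rescaled block was also chosen after seeing the data.

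FOSB, EGR1 and IER3 rested on few reads (at most 62 per library), while FOSL2 had at least 12875 reads in each.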
